A study of Homo sapiens with 16 samples.

Results

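The comparison is between 2 mutant alleles of PCSK5, M452I and T288P, read from RNA of 3-dimensional cultures of a human breast cell line across all genes. Its members are the 8 libraries, of 16 in the series, whose labels name one of these alleles without added GDF11: 4 wells with M452I and 4 with T288P. MCF10DCIS.com is an established line of the MCF10A family that forms lesions like ductal carcinoma in situ. All groups descend from 1 PCSK5-/- clone made with Cas9, and each carries a guide-resistant, V5-tagged, tetracycline-regulated PCSK5 allele (wildtype, M452I or T288P). Each allele is 1 polyclonal, hygromycin-selected line, so the wells are not independent lines and a difference between alleles cannot be told apart from one between lines. Wells were seeded with 5000 cells in medium with 5 ng/ml EGF and 2% matrigel, had doxycycline at 1 µg/ml added on day 4 and stayed in it until lysis on day 8. The other 8 libraries, 4 wells of the wildtype allele (WT) and 4 of T288P grown with 250 ng/ml GDF11, are used here for the estimate of spread and as values beside the comparison.

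PCSK5 is a proprotein convertase of the secretory pathway, an enzyme that cuts inactive precursors of secreted proteins after basic residues. One of its known substrates is the precursor of GDF11, a ligand of the TGF-beta family. Mature GDF11 binds type II and type I activin-class receptors, which phosphorylate SMAD2 and SMAD3. These join SMAD4 in the nucleus and change transcription, and epithelial cells answer such signals with changes in matrix, adhesion and cell cycle genes.

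The codons that the alleles are named for are shown in their reference context, to place the alleles in the gene. PCSK5 lies on chromosome 9, plus strand. In GENCODE 29 on GRCh38, the codon of T288P is in exon 7 of transcript ENST00000545128 at chr9:76071866-76071868 and that of M452I in exon 11 at chr9:76157086-76157088. The same codon stands at each position in 3 of 3 coding transcripts of that reading frame. Capitals mark the codon, ACC for threonine and ATG for methionine, with 30 reference bases on each side:
PCSK5 codon of T288P: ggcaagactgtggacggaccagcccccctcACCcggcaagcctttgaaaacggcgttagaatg
PCSK5 codon of M452I: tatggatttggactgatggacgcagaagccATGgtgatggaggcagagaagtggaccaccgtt
The allele names state a proline at the first position and an isoleucine at the second. The count table holds no reads over these codons, so the allele of a well was not checked.

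PCSK5 transcript was present in every well. It was 26.1, 39.4, 25.6 and 66.8 CPM (the count of a gene per M counts in its library, on library sizes adjusted by edgeR's TMM) in M452I replicates 1 to 4, and 26.4, 29.4, 56.5 and 38.7 in T288P. The groups overlapped, and the log2 difference of M452I minus T288P was 0.07 (standard error, SE, 0.34). A count per gene does not separate the introduced allele from transcript of the disrupted gene, so these values check neither. GDF11 was low, 4.43 to 6.82 CPM in M452I and 4.60 to 7.10 in T288P, with a log2 difference of 0.00 (SE 0.20). All 7 epithelial markers were measured, with a summed level of 3511 to 4141 CPM in M452I and 3574 to 4057 in T288P. Of 9 fibroblast markers, 6 were at 0 in all 8 wells, while COL1A1 reached 5.39 and FAP 10.4 CPM, and the summed level was 7.63 to 15.3 CPM in M452I and 8.84 to 15.9 in T288P. Of 9 leukocyte markers, PTPRC reached at most 0.195 CPM, and CD68, a lysosomal protein, was at 117 to 230.2 and made up nearly all of the summed level of 118 to 231 CPM in M452I and 145 to 212 in T288P.

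One well of each allele stood apart from its group. Library totals were 29.7 M to 50.8 M counts in M452I and 28.5 M to 44.8 M in T288P. On the first principal component of all 16 libraries, M452I replicates 1 to 3 lay at -44.7, -40.4 and -32.9 and replicate 4 at 37.5. T288P replicate 1 lay at -43.0, beside those 3 M452I wells, and T288P replicates 2 to 4 at 3.95, 2.15 and 8.81. The WT wells lay at -39.6 to -5.03 and the wells of T288P with GDF11 at 44.1 to 63.6. On this component alone, M452I replicate 4 lay nearer to the wells with GDF11 than to T288P without it. On the second component it lay at -31.9. There T288P replicates 2 to 4 lay at -0.83, -33.3 and -6.54, and the wells with GDF11 at -4.32 to 34.4. Ribosomal protein genes took 9.30% of the counts in M452I replicate 4 and 12.7% to 13.04% in the other M452I wells. They took 12.3% in T288P replicate 1 and 10.7% to 11.1% in the other T288P wells. The TMM factor was 1.12 in M452I replicate 4 against 0.887 to 0.899 in its group, and 0.910 in T288P replicate 1 against 1.01 to 1.04. The counts over all genes are given with all wells and without these 2 wells. In the edgeR fit with all wells, no member of the 52 gene lists used here was called, so each count of list members called is one without the 2 wells. The 2 wells were chosen with these data in view, so values without them describe the 6 remaining wells and are no independent evidence of a difference between alleles.

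With all 8 wells, 1 of 16790 tested genes (0.00596%) differed between the alleles by edgeR's quasi-likelihood test at a Benjamini-Hochberg adjusted p under 0.05. An unadjusted p under 0.05 was reached by 366 genes, where 839.5 would be reached if no gene differed and genes were independent. The values of the 4 and 4 wells did not overlap for 201 genes (1.20%), 86 higher (0.512%) and 115 lower (0.685%) in M452I. The median log2 difference over all genes was 0.01.

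The called gene was SMPD4BP, a transcribed pseudogene related to SMPD4, which encodes a neutral sphingomyelinase. It was at 3.39, 4.95, 3.64 and 3.47 CPM in M452I and at 8.80, 8.84, 8.87 and 8.63 in T288P. All M452I wells were lower than all T288P wells, including the 2 wells that stand apart. The log2 difference was -1.18 (SE 0.15, adjusted p = 0.00513 by edgeR). WT held 6.62 to 10.2 CPM and T288P with GDF11 7.77 to 8.24, both above every M452I well. The table lists the symbol a second time, as ENSG00000152117 on chromosome 2 at 131492813 to 131521573, and the entries can share reads. That entry was at 4.42, 1.19, 3.36 and 6.36 CPM in M452I and 0, 1.28, 0 and 0.87 in T288P, in the opposite direction. Their sum was 7.70 ± 1.58 CPM (SD, n = 4) in M452I and 9.32 ± 0.61 (n = 4) in T288P, and the groups overlapped. With the entries summed, the log2 difference was -0.28 and no gene was called, so the call depends on counting the 2 entries apart. SMPD4 itself was at 23.5 to 31.7 CPM in M452I and 27.1 to 31.1 in T288P.

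A further 4 named genes with a symbol, all lower in M452I, separated the groups in all 8 wells and were called without the 2 wells. Their adjusted p was 1.00 by edgeR in the fit of all wells. The unnamed gene ENSG00000256028, described under other observations, did both in the higher direction. Over all genes 12 did both, 3 higher and 9 lower. COX20, an assembly factor of cytochrome c oxidase, was at 2.93, 3.39, 3.09 and 5.07 CPM in M452I and 5.26, 7.26, 9.74 and 10.1 in T288P. SGSM3, a RAB GTPase-activating protein, was at 7.28, 11.98, 11.8 and 13 CPM against 15.3, 17.4, 20.7 and 18.7. In both genes the M452I well nearest to T288P was replicate 4, and the T288P well nearest to M452I was replicate 1. SLC7A6, an amino acid transporter, was at 14.4, 13.7, 12.1 and 16.8 CPM in M452I and 23.7, 19.2, 20.3 and 20.1 in T288P. LINC01106, a long noncoding RNA, was at 5.28 to 6.79 CPM in M452I and 6.96 to 9.08 in T288P. With a further well left out in turn, LINC01106 was called in 0 of 6 fits, and COX20, SGSM3 and SLC7A6 in all 6. Exons of COX20 and SLC7A6 overlap those of another tested gene on the opposite strand over 72.0% and 55.6% of their bases, and those of SGSM3 overlap one on the same strand over 62.4%. Reads of the pairs on opposite strands cannot be assigned with the strand setting unknown, and reads shared on the same strand cannot be told apart by strand.

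**Figure D1:**
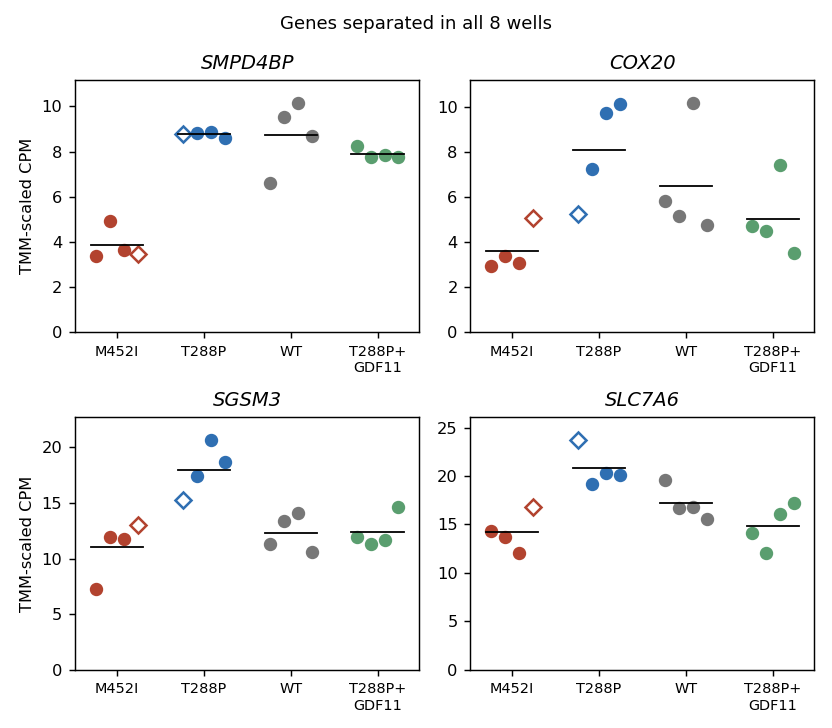
TMM-scaled CPM (y axis, linear, from 0) of SMPD4BP, COX20, SGSM3 and SLC7A6 in the 4 wells of each group. Filled circles are wells, open diamonds are M452I replicate 4 and T288P replicate 1, and lines are means of 4 wells. All M452I wells lie below all T288P wells in each panel, with SMPD4BP at 3.39 to 4.95 against 8.63 to 8.87.

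Leaving out M452I replicate 4 and T288P replicate 1 changed the count from 1 to 2420 of 17212 genes (14.1%), 1529 higher (8.88%) and 891 lower (5.18%) in M452I. Of these, 157 of the higher and 453 of the lower reached a fold of 1.5, and 33 and 170 a fold of 2. The 3 and 3 wells did not overlap for 5705 genes (33.1%). The count belongs to that pair of wells. Of the 16 ways to leave out 1 well of each allele, the other 15 called 0 or 1 gene, and leaving out any single well called 1. Without M452I replicate 4 alone, 3303 genes had an unadjusted p under 0.05, and without T288P replicate 1 alone 988. In a fit without the 2 wells of only the 15950 genes of known length and GC content, 2417 were called, 61.69% of them higher in M452I. With transcript length and GC trends removed per library, 3096 of the same genes were called, 80.04% of them higher. The median log2 difference moved from -0.02 to 0.07 with that step.

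**Figure D2:**
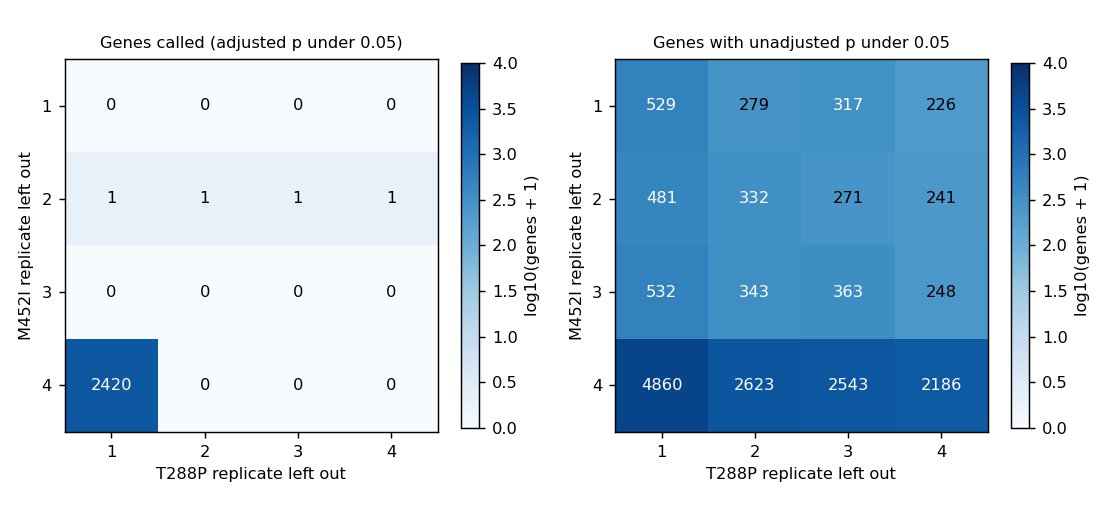
Number of genes called at adjusted p under 0.05 (left) and with unadjusted p under 0.05 (right) when 1 well of each allele is left out, by M452I replicate (rows) and T288P replicate (columns). Colour is log10 of the number plus 1. Only the pair M452I replicate 4 and T288P replicate 1 gives 2420 calls, and the other 15 pairs give 0 or 1.

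In most of these genes each of the 2 wells lay on the side of the other allele. In the edgeR fits, nearly all of them were called only with both wells left out, so wells that go against the calls follow largely from that choice. A fit by limma-voom that weighted libraries by quality called 676 genes with all wells. The same shares over all tested genes were not computed, so those below are a description. Among 1528 higher genes tested in both fits, M452I replicate 4 lay on the T288P side of the midpoint for 1511 (98.9%) and below all 3 remaining T288P wells for 1218. T288P replicate 1 lay on the M452I side for 1426 (93.3%). Among 890 lower genes these counts were 871 (97.9%), 587 above all 3 T288P wells, and 776 (87.2%). Of these 1528 higher and 890 lower genes, 12 also separated the groups in all 8 wells, 3 higher and 9 lower. Over all 16790 tested genes, 201 did (1.20%), so the called genes separated no more often than all genes. Whether the labels of the 2 wells, their culture or their RNA differ was not tested.

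Genes of the PCSK5 and GDF11 pathway were called about as often as all genes. Without the 2 wells, 12 of the 74 tested genes in its 6 lists (16.2%, each gene counted once) were called, against 14.1% of all genes. Of these 5 were higher (6.76%, against 8.88%) and 7 lower (9.46%, against 5.18%). With all wells none was called, and in none did the 4 and 4 wells separate. Among 6 tested convertases, 1 was lower without the 2 wells: PCSK7, a convertase of the same family, by -0.45 log2 (adjusted p = 0.026 by edgeR) and -0.16 (SE 0.17) with all wells. PCSK5 was then at -0.45 (SE 0.33, adjusted p = 0.426), not past the threshold. Among 10 ligands, INHBA, the activin A subunit, was lower (-0.62, and -0.17 with all wells) and GDF15, a stress-induced family member, was higher (0.79, and 0.41 with all wells), while GDF11 was at -0.18 (adjusted p = 0.639). Of 10 receptors, TGFBR2, the type II receptor for TGF-beta, was lower (-0.62, and -0.16 with all wells).

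Of 15 SMADs and inhibitors, 3 were higher (20%, against 8.88% of all genes) and 1 lower (6.67%, against 5.18%) without the 2 wells. TGIF1, a SMAD corepressor, was at 60.4, 56.2, 53.3 and 38.1 CPM in M452I and 56.6, 42.2, 44.5 and 40.3 in T288P. SMURF1, a ubiquitin ligase acting on SMADs and receptors, was at 164, 180, 158 and 99.2 CPM against 175, 123, 133 and 116. In both genes M452I replicates 1 to 3 and T288P replicate 1 were high and M452I replicate 4 was lowest, so the groups of 4 overlapped. SMAD2 followed at 0.30 log2 (adjusted p = 0.0171, and 0.09 with all wells), and PMEPA1, a feedback inhibitor, at -0.32 (adjusted p = 0.048, and -0.06 with all wells). Of 31 SMAD2/3 targets, TGIF1 and PMEPA1 among them, 2 were higher (6.45%) and 4 lower (12.9%), a list median of -0.08 against -0.02 over all genes. The list score, the mean log2 CPM of its members centred on the 8 wells, was -0.04 ± 0.12 (SD, n = 4) in M452I and 0.04 ± 0.15 in T288P. It was 0.66 ± 0.04 in T288P with GDF11, above all 8 wells, M452I replicate 4 among them at 0.10. None of 10 BMP targets passed.

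Lists of protein synthesis, energy metabolism and protein breakdown had many members higher in M452I without the 2 wells, where 8.88% of all genes were higher. All 79 cytosolic ribosomal protein genes were higher, with a median of 0.46, and so were 22 of 34 translation factors (64.7%), 53 of 74 nuclear oxidative phosphorylation genes (71.6%), 18 of 31 proteasome genes (58.1%) and 18 of 53 mitochondrial ribosomal protein genes (34%), with none lower. With all wells, the medians were 0.19, 0.13, 0.15, 0.13 and 0.11. Of mitochondrially encoded genes 5 of 13 were lower (38.5%, against 5.18% of all genes) and none higher, with a median of -0.20, and -0.09 with all wells. RPL10A, a protein of the large ribosomal subunit, was at 1170.4, 1165, 1229 and 608 CPM in M452I and 1132, 806, 776 and 810.1 in T288P. EIF1, an initiation factor, was at 1677, 1763, 1650.0 and 737 CPM against 1647, 1066, 1103 and 1041. NDUFS4, a subunit of complex I, was at 75.2, 71.3, 75.6 and 45.7 CPM against 70.4, 52.0, 50.98 and 52.8. M452I replicate 4 was the lowest of the 8 wells in each, and T288P replicate 1 stood with M452I replicates 1 to 3. The ribosomal list score was 0.29, 0.28, 0.30 and -0.56 in M452I and 0.20, -0.18, -0.17 and -0.17 in T288P. The WT wells lay between -0.22 and 0.06. Processed pseudogenes can share reads with ribosomal protein genes, which makes single members uncertain.

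**Figure D3:**
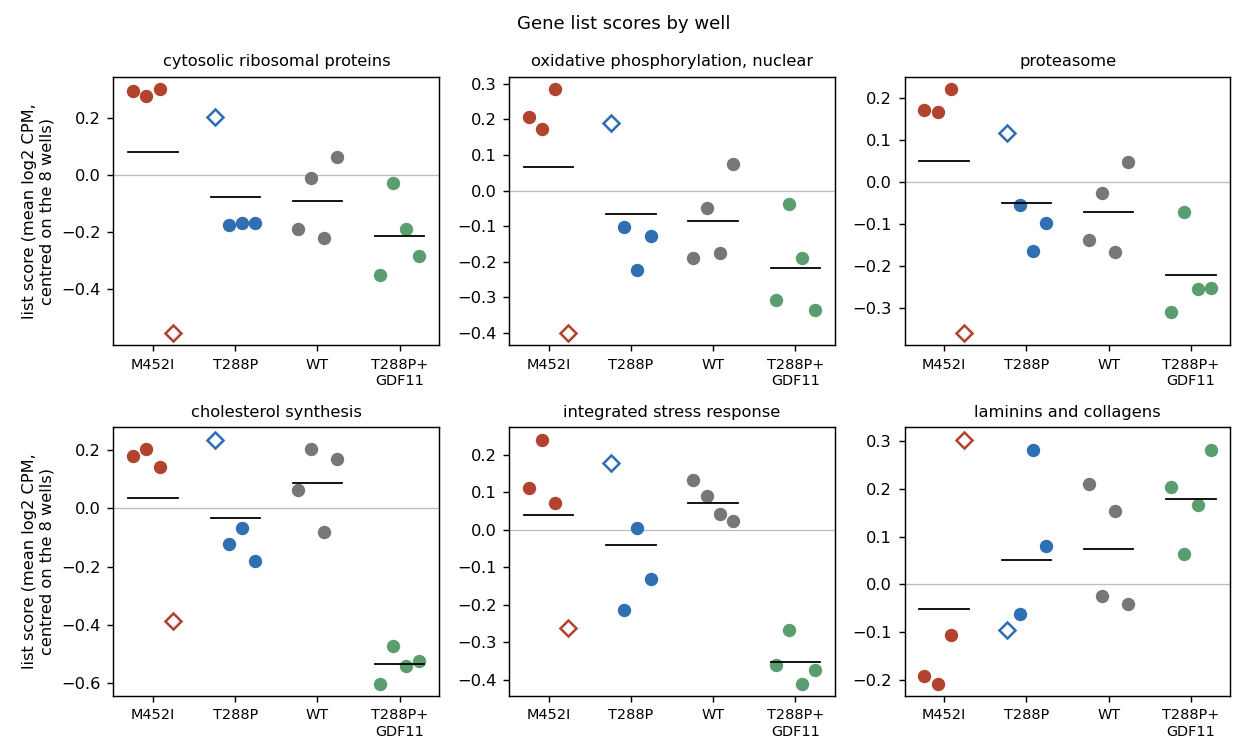
List score (mean log2 CPM of the members, centred on the 8 wells, y axis) by group for 6 gene lists. Filled circles are wells, open diamonds M452I replicate 4 and T288P replicate 1, lines the means of 4 wells. For cytosolic ribosomal proteins M452I replicate 4 lies at -0.56 and the other M452I wells at 0.28 to 0.30.

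Part of the stress response genes were higher in M452I without the 2 wells, beside 8.88% of all genes. They were 12 of 29 genes of the unfolded protein response (41.4%), 11 of 30 of the integrated stress response (36.7%) and 10 of 22 NRF2 targets (45.5%), with none lower and most members of each list not past the threshold. Their medians were 0.22, 0.21 and 0.29, and with all wells 0.05, 0.07 and 0.14. Of 15 heat shock protein genes 4 were higher and 1 lower, of 4 metallothioneins 1 was higher, and of 20 p53 targets 4 were higher, with a median of -0.04. HMOX1, the haem-degrading enzyme induced by NRF2, was at 71.4, 61.9, 65.4 and 10.7 CPM in M452I and 67.6, 23.1, 21.6 and 21.7 in T288P. The difference was 1.58 log2 without the 2 wells (SE 0.19, adjusted p = 0.000518) and 0.65 (SE 0.51) with all. WT held 51.6 to 82.6 CPM, a range that holds the 4 high wells, and T288P with GDF11 5.47 to 9.50, below M452I replicate 4. DDIT3, a transcription factor of the integrated stress response, was at 74.9, 73.3, 63.4 and 18.3 CPM against 73.6, 31.2, 32.0 and 30.5. PPP1R15A, which returns the phosphatase to eIF2, was at 179, 207, 177 and 81.6 CPM against 197, 108, 120 and 111. In all 3 genes 4 wells were high, M452I replicates 1 to 3 and T288P replicate 1.

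The same 4 wells were high for the sterol, S100, keratin 8 and claudin genes described next. Of 25 cholesterol synthesis genes 16 were higher (64%, against 8.88% of all genes) and 1 lower (4%, against 5.18%), with a median of 0.31, and 0.11 with all wells. INSIG1, which retains the sterol sensor in the endoplasmic reticulum, was at 484, 527, 440 and 205 CPM against 531, 261, 304 and 257. Of 13 S100 genes 9 were higher (69.2%), with a median of 0.44, and 0.16 with all wells. S100A9, a calcium-binding alarmin, was at 148, 137, 147 and 40.5 CPM in M452I and 140, 78.7, 60.3 and 65.8 in T288P. The luminal keratin KRT8 was at 742, 720, 667 and 277 CPM against 708, 406, 405 and 389, and 4 of 12 luminal genes were higher (33.3%), with a median of 0.23, and 0.12 with all wells. Of 17 tight junction genes 5 were higher (29.4%), with a median of 0.24, and 0.10 with all wells. CLDN4, a claudin, was at 235, 236, 232 and 110 CPM against 236, 144, 177 and 146. Of 9 adherens junction genes 3 were higher, and of 11 desmosome genes 2. Basal keratins KRT5 and KRT14 passed in neither fit, with KRT5 at 2213 to 2371 CPM in M452I and 2207 to 2606 in T288P.

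Genes lower in M452I without the 2 wells included 5 of 20 laminins and collagens (25%, against 5.18% of all genes), with none higher. The list median was -0.19, and -0.05 with all wells. COL7A1, the anchoring fibril collagen, was at 1.48, 1.03, 1.78 and 5.76 CPM in M452I and 2.04, 3.42, 5.32 and 4.01 in T288P, and COL4A5 at 27.9, 28.6, 28.3 and 60.4 against 27.0, 38.3, 47.4 and 39.4. Basal keratins and lineage factors went both ways, with 2 of 16 higher (12.5%, against 8.88% of all genes) and 3 lower (18.8%), and a median of -0.07. TP63, the basal lineage factor and one of the lower genes, was at 15.7, 15.4, 17.5 and 47.5 CPM against 17.7, 27.7, 30.03 and 27.4. Here M452I replicate 4 was the highest well and T288P replicate 1 one of the low ones. IL33, an epithelial cytokine, was at 26.9, 27.0, 30.1 and 44.2 CPM against 30.5, 51.2, 43.3 and 45.2, and T288P with GDF11 was lower than all 8 wells at 11.7 to 13.8. Of 36 replication genes 1 was higher (2.78%, against 8.88% of all genes) and 3 lower (8.33%, against 5.18%), and of 30 genes of G2 and mitosis 2 were higher (6.67%) and 3 lower (10%). MCM3, a subunit of the replicative helicase and one of the lower genes, was at 4.03, 4.89, 5.46 and 11.9 CPM against 4.47, 8.99, 8.42 and 8.69. MKI67, a proliferation marker, was at 49.6 to 67.1 CPM in M452I and 52.2 to 63.3 in T288P.

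**Figure D4:**
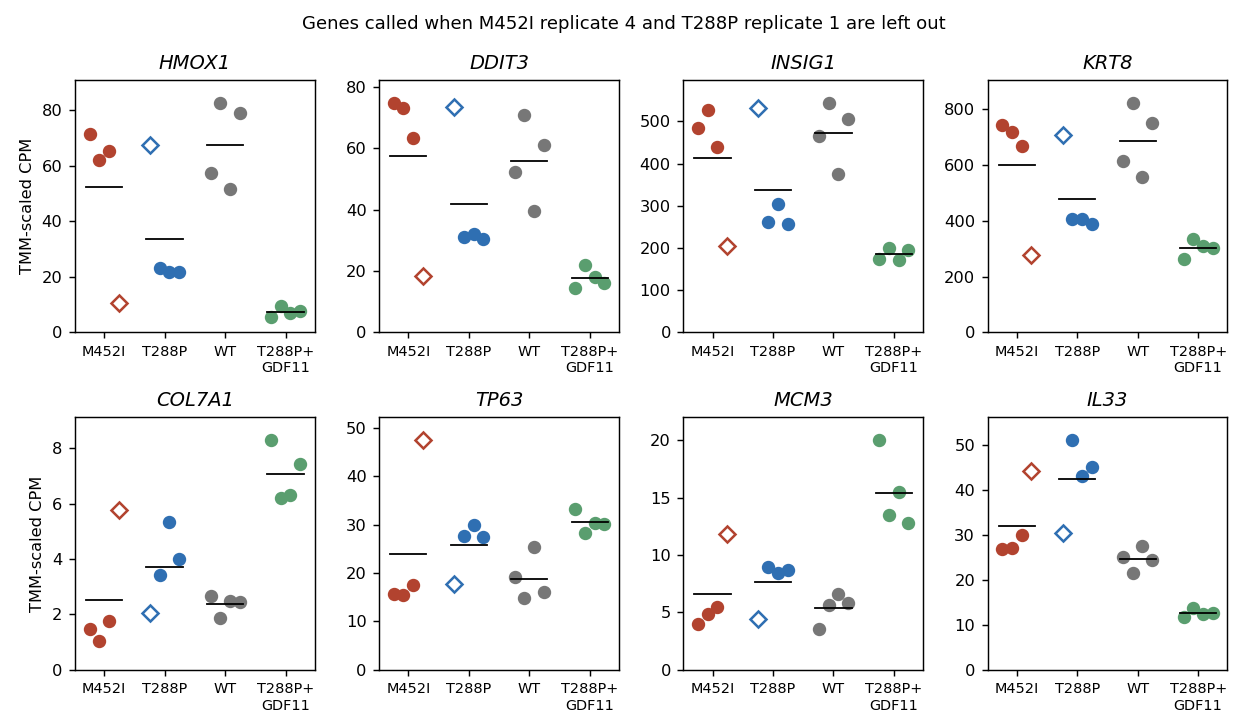
TMM-scaled CPM (y axis, linear, from 0) of 8 genes called without M452I replicate 4 and T288P replicate 1, by group. Filled circles are wells, open diamonds those 2 wells, lines the means of 4 wells. For HMOX1 M452I replicate 4 is at 10.7 CPM and the other M452I wells at 61.9 to 71.4.

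The 5 largest differences in each direction without the 2 wells were taken over called genes of at least 3 CPM in 1 group. These genes also had a symbol, were no annotated pseudogenes and did not overlap between the 3 and 3 wells. Among them, HMOX1 was at a mean of 66.2 CPM in the 3 M452I wells, and the other genes were at means of 5.30 CPM or less. KBTBD11-OT1 was at 2.01, 8.53, 2.37 and 0 CPM in M452I and at 0, 0, 0.244 and 0 in T288P, and all of its exon bases lie in exons of another tested gene on the same strand. TMPRSS15, the protease enteropeptidase, was at 5.76, 5.00, 5.13 and 1.69 CPM against 4.17, 0.563, 0.522 and 1.71. ANKEF1, an ankyrin repeat protein, was lower by 1.76 log2 in M452I, at 0.990, 1.084, 0.943 and 5.73 CPM against 1.48, 4.07, 2.51 and 3.65. TRPV1, a cation channel, was at 0.353, 0.917, 0.680 and 2.08 CPM against 0.953, 2.34, 4.14 and 2.64. EVA1B and RPPH1 were higher, and APPAT and GSEC lower, with every group of 4 overlapping. Exons of EVA1B overlap those of another tested gene on the opposite strand over 46.5% of their bases. With a further well left out in turn, KBTBD11-OT1 and EVA1B were called in 1 of 6 fits, TMPRSS15 in 3, RPPH1 in 4 and APPAT in 5. HMOX1, ANKEF1, TRPV1 and GSEC were called in all 6.

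Transcript length moved with the direction of the calls. In the shortest quintile of 12718 protein-coding genes (171 to 2152 bases), 22% were higher and 1.41% lower in M452I without the 2 wells, and in the longest quintile (5952 to 109224 bases) 4.76% were higher and 11.0% lower. For each well, the deviation of every gene from the mean of the other wells of its group was set against length. The rank correlation across genes was -0.16, -0.16, -0.26 and 0.25 in M452I and -0.19, 0.07, 0.11 and 0.04 in T288P. It is a description, since genes are not independent. A well that stands apart also moves the others of its group the opposite way, so these values do not compare the alleles. With length and GC trends removed, the 79 ribosomal protein genes were still called higher, with a median of 0.48, and 54 of 74 nuclear oxidative phosphorylation genes were. Other calls changed. Over all 15950 genes of known length and GC content, lower calls went from 926 to 618 and higher calls from 1491 to 2478. The 30 genes of G2 and mitosis moved in the same direction as all genes, with 6 then higher and 0 lower, against 2 and 3 before. PCSK7 and PMEPA1 were no longer called. The part of RNA quality or library preparation in these values was not tested.

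**Figure D5:**
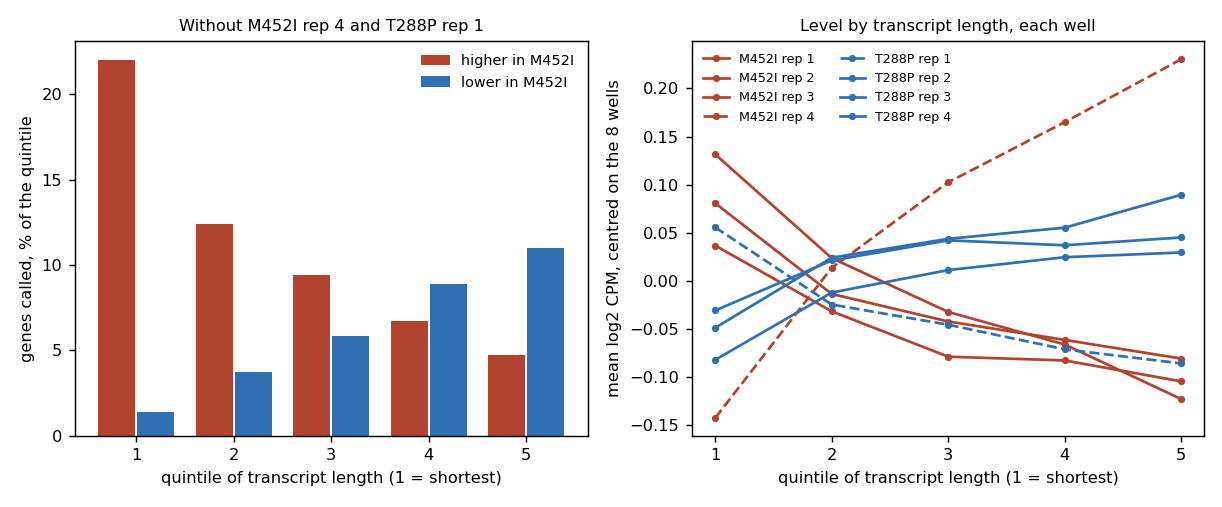
Left, share of genes called higher (red) and lower (blue) in M452I without the 2 wells, in % of each quintile of transcript length. Right, mean log2 CPM of each quintile centred on the 8 wells, 1 line per well, dashed for M452I replicate 4 and T288P replicate 1. In the shortest quintile 22% are higher and 1.41% lower.

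Of 7 genes named for their level in WT against both mutant groups, 1, IL1B, passed the test between the alleles, in the fit without the 2 wells. PADI2, a peptidylarginine deiminase, was at 6.76 to 8.70 CPM in M452I, 5.36 to 7.91 in T288P and 13.2 to 18.8 in WT. MYH14, a nonmuscle myosin heavy chain, was at 14.5 to 18.1, 12.2 to 17.1 and 22.6 to 28.6 CPM, and the desmosomal linker PPL at 49.8 to 57.3, 40.8 to 61.1 and 68.0 to 85.0. TGFBI, a matrix protein induced by TGF-beta, was at 104 to 136, 99.6 to 118 and 69.2 to 80.8 CPM. For each of these the M452I and T288P wells overlapped and every WT well lay outside both. These genes were chosen for their difference from WT in an earlier look at these data, so that difference is a description. IL1B, a cytokine, was lower in M452I by -0.27 log2 without the 2 wells (adjusted p = 0.0461 by edgeR) and by -0.06 (SE 0.12) with all. With a further well left out in turn, it was called in 2 of 6 fits.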

How the data were processed

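Poly(A)-selected RNA of 16 wells was sequenced as read pairs, per the labels' protocols. The authors deposited whole-number counts per gene, not normalized. HISAT2 and StringTie 2.2.1 were used with GRCh38, per the submitters' processing notes. For the counting step, the annotation release and the strand setting, nothing was stated per the labels or the notes read here. The table held 78894 genes.

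Tests ran in R 4.3.3 with edgeR 4.0.16 (TMM, filterByExpr with a minimum count of 10, robust quasi-likelihood F test) on all 16 libraries, and again on 14 libraries. P-values were adjusted by Benjamini-Hochberg over all tested genes, with a threshold of 0.05. They measure only the spread between wells of 1 line per allele. The SE was taken as |log2 difference| / √F. Levels are given as CPM on TMM-scaled library sizes. Coordinates come from GENCODE 29 on GRCh38, which held 15639 (93.1%) of the tested genes. The model was tested on simulated data.

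Alternatives were DESeq2 1.42.0, limma-voom 3.58.1 with and without library quality weights, RLE normalization, no filter, a filter of 50 counts in 4 libraries, the 2 groups only, a replicate block and leaving out wells. Added after seeing the data were genes of known length only, length and GC trends removed (splines of 5 degrees of freedom) and summed SMPD4BP entries.

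The members, the 2 wells left out and the 52 gene lists were chosen with earlier results of these data known. The rule for named genes took PCSK5, GDF11, 7 genes that differed from WT, 7 lineage markers and every call of all wells. It took up to 10 genes a direction called without the 2 wells and separated in all 8. From called genes of at least 3 CPM whose 3 and 3 wells did not overlap, it took the 5 largest differences a direction. It also took up to 3 members of each list with at least 3 calls. SMPD4 and ENSG00000256028 were named after their values were seen. INHBA, GDF15, TGFBR2, PCSK7 and PMEPA1 were named as the called members of the pathway lists, also after their values were seen. Of the genes the rule took, 1 is not reported here, and not all of the others are described one by one.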

Additional observations from a re-analysis of the deposited data

Results flagged for a closer look

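In 94 of 368 sets of 4 wells (25.5%), the highest or lowest value lay apart from the other 3 by more than Dixon's 95% limit for 4 values, where chance alone gives about 1 in 20. The sets were the M452I and T288P wells of each reported gene, each list score and 3 library measures. M452I replicate 4 was the outlying well in 59, T288P replicate 1 in 32, T288P replicate 3 in 2 and M452I replicate 2 in 1. The sets share wells and many genes move together, so they are not independent. Most of these genes were chosen because they were called without M452I replicate 4 and T288P replicate 1, and these wells were left out because they stand apart. The share of sets and the wells they fall on therefore restate that choice and are not to be read against chance.

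Ribosomal protein genes took 9.30% of the counts in M452I replicate 4, against 12.7% to 13.04% in the other 3 wells, and its TMM factor was 1.12 against 0.887 to 0.899. Its list scores, with the range of the other 3 wells in parentheses, were cytosolic ribosomal proteins -0.56 (0.28 to 0.30), translation factors -0.31 (0.16 to 0.19), oxidative phosphorylation, nuclear -0.40 (0.17 to 0.28), proteasome -0.36 (0.17 to 0.22), unfolded protein response -0.37 (0.14 to 0.15), heat shock proteins -0.22 (0.08 to 0.14), cholesterol synthesis -0.38 (0.14 to 0.20), S100 proteins -0.49 (0.24 to 0.28), actomyosin -0.17 (0.09 to 0.11) and lysosome -0.12 (0.04 to 0.05). For T288P replicate 1, the list scores outside its group were cytosolic ribosomal proteins 0.20 (-0.18 to -0.17), heat shock proteins 0.10 (-0.09 to -0.06) and luminal keratins and lineage factors 0.21 (-0.14 to -0.09).

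The CPM of M452I replicate 4 was the lowest of its group, with the range of the other 3 wells in parentheses, for HMOX1 10.7 (61.9 to 71.4), CDKN1A 197 (351 to 382), RPL10A 608 (1165 to 1229), RPS14 1921 (3380 to 3569), RPL27 594 (1100 to 1145), EIF1 737 (1650 to 1763), TPT1 3441 (6379 to 6684), EEF1A1 23248 (38406 to 39509) and NDUFS4 45.7 (71.3 to 75.6). Lowest in that well were also PSMC6 99.2 (158 to 166), PSMC1 91.5 (147 to 153), MANF 59.5 (119 to 126), SSR2 194 (313 to 326), HSPA8 3022 (4832 to 5114), HSP90AB1 2103 (3099 to 3266), GAPDH 2809 (4573 to 4896), ALDOC 25.7 (50.2 to 53.7) and RRM2 59.8 (92.5 to 96.1). Further low values there were KRT8 277 (667 to 742), S100A14 6481 (12566 to 13084), S100A9 40.5 (137 to 148), NECTIN4 24.1 (38.5 to 40.8), CLDN4 110 (232 to 236), MYL12B 284 (493 to 514), MYL6 621 (1103 to 1133), MYL12A 352 (551 to 588) and IL18 617 (931 to 946). Low values also included B2M 423 (678 to 711), HLA-E 184 (292 to 296), NPC2 89.9 (170 to 186), CTSD 159 (220 to 224), HNRNPC 512 (827 to 890) and H3-3A 143 (228 to 232). That well was the highest of its group for COL7A1 5.76 (1.03 to 1.78), GSEC 3.92 (0.919 to 1.39), ANKEF1 5.73 (0.943 to 1.084), MT-ND6 257 (180 to 186), MT-CYB 1710 (1080 to 1148), TP63 47.5 (15.4 to 17.5), ITGA6 1278 (712 to 718), COL4A5 60.4 (27.9 to 28.6) and COL4A6 25.9 (11.2 to 12.1). It was also highest for TNFAIP2 5.10 (1.48 to 1.93), EGFR 331 (152 to 164), LIPA 34.5 (17.3 to 18.8), SRSF1 127 (73.7 to 79.1) and MKI67 67.1 (49.6 to 52.4).

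The CPM of T288P replicate 1 was the highest of its group for HMOX1 67.6 (21.6 to 23.1), RPL10A 1132 (776 to 810), RPL27 1052 (755 to 796), EIF1 1647 (1041 to 1103), NDUFS4 70.4 (50.98 to 52.8), COX8A 98.3 (53.5 to 60.3), PSMD8 200.4 (144 to 147), SEC61B 54.5 (33.97 to 36.0) and PPP1R15A 197 (108 to 120). Also highest there were DDIT3 73.6 (30.5 to 32.0), TXN 295 (207 to 213), GAPDH 4572 (3429 to 3502), ALDOC 46.7 (35.0 to 36.6), INSIG1 531 (257 to 304), FDFT1 756 (491 to 531), CDC20 131 (63.5 to 71.9), KRT8 708 (389 to 406) and SPRR2A 56.8 (33.2 to 36.7). High values there included CSTA 123 (91.4 to 92.2), S100A14 12826 (8614 to 8940), NECTIN4 39.3 (25.0 to 27.0), MYL12B 478 (338 to 347), MYL12A 537 (410 to 425), IL18 893 (749 to 772), NPC2 164 (119 to 124), ZFAS1 394 (291 to 297) and SNHG5 551 (389 to 397). It was the lowest of its group for MCM3 4.47 (8.42 to 8.99) and ITGA6 690 (916 to 963). In the other wells, SMPD4BP was highest in M452I replicate 2 at 4.95 CPM (3.39 to 3.64), KBTBD11-OT1 in T288P replicate 3 at 0.244 with the other 3 wells at 0, and ENSG00000256028 was lowest in T288P replicate 3 at 3.10 (5.03 to 5.21).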

How the results depend on the processing

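With all wells, the count of 1 gene was also given by limma-voom, RLE normalization, no filter and the stricter filter. DESeq2 called 6 genes, library quality weights 676 (weight 0.198 for M452I replicate 4 and 0.462 for T288P replicate 1), and 0 were called with only the 2 groups compared (194 at unadjusted p under 0.05), with genes of known length only (343, SMPD4BP not among them), with length and GC trends removed (389) and with the SMPD4BP entries summed (365). Leaving out wells gave 0 to 2420, with 2420 without M452I replicate 4 and T288P replicate 1 together. Without those 2 wells, the other settings called 1839 to 3422 genes, and leaving out 1 more of the 6 wells 1048 to 2059 (1337 without M452I replicate 1, 1219 without replicate 2, 1396 without replicate 3 and 1048 without T288P replicate 4). SMPD4BP was not past the threshold with only the 2 groups (-1.19, adjusted p = 0.297) or with its entries summed (-0.28), and the cause was not tested in the first. A replicate block called 1 gene with all wells and 2221 without the 2 wells. Same-numbered wells shared deviations with correlations of 0.16, -0.10, -0.08 and 0.17. The closest T288P well was replicate 1 for M452I replicates 1 to 3 and replicate 4 for M452I replicate 4. Whether same-numbered wells share a batch cannot be told from so few values.

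PCSK5 turned to -0.30 with quality weights and -0.45 without the 2 wells, and ranged from -0.31 to 0.32 over single wells left out. GDF11 turned to -0.0080 (DESeq2), -0.0134 (voom), -0.14 (quality weights), -0.0072 (RLE), -0.0108 (no filter), -0.0115 (stricter filter), -0.0053 (2 groups), -0.0120 (replicate block) and -0.18 (without the 2 wells), and ranged from -0.10 to 0.12 over single wells left out. The other reported genes that turned did so only with 1 well left out, none of them past the threshold: MYH14 (-0.0196 to 0.14), MANF (-0.0137 to 0.28), TP63 (-0.66 to 0.0606), ITGA6 (-0.30 to 0.0314), COL4A5 (-0.43 to 0.0549), COL4A6 (-0.47 to 0.0292), ICAM1 (-0.33 to 0.0068), LIPA (-0.34 to 0.0468), CDH1 (-0.0304 to 0.0628), KRT5 (-0.0869 to 0.0062) and VIM (-0.0384 to 0.14). The causes were not tested. The median of all genes stayed within 0.1 log2 of 0 in every setting. Small differences can go undetected, in genes at a few CPM as in others. With all wells, the SE was 0.14 for PADI2 and 0.17 for RPL10A. Whether sequencing depth sets this limit was not tested.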

Other observations

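ENSG00000256028, an unnamed gene on chromosome 12, was higher in M452I in all 8 wells, at 8.94, 10.9, 6.21 and 5.79 CPM against 5.09, 5.03, 3.10 and 5.21 in T288P. It was called without the 2 wells (0.96 log2, adjusted p = 0.038 by edgeR), but 97.5% of its exon bases lie in exons of another tested gene on the same strand.

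The unnamed genes ENSG00000281181 and ENSG00000280800 had among the smallest adjusted p-values without the 2 wells. ENSG00000281181 was at a mean of 1561 CPM in the 4 M452I wells and 1217 in the 4 T288P wells, with a log2 difference of 0.80 (SE 0.08) without the 2 wells and 0.36 (SE 0.21) with all. ENSG00000280800 was at 1339 and 1053 CPM, with 0.77 (SE 0.08) and 0.35 (SE 0.20).

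Of 713 processed pseudogenes tested, 59 were higher in M452I without the 2 wells (8.27%, near the 8.88% of all genes) and 1 was lower (0.14%, against 5.18%).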
